A study of Mus musculus with 6 samples.

Results

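The 10 genes described here belong to the cyclic AMP (cAMP) pathway that holds the oocyte in meiotic prophase, and were read out of a transcript table of 23235 gene rows. They were taken by exact symbol: the receptors Gpr3 and Gpr12, the stimulatory G protein gene Gnas, the adenylyl cyclases Adcy3 and Adcy9, the phosphodiesterase Pde3a, and the subunits of cAMP-dependent protein kinase (PKA) Prkar1a, Prkar2b, Prkaca and Prkacb. All 10 symbols were found, and 9 of them were among the 12029 genes whose mean over the libraries reached 1 FPKM (fragments per kilobase of transcript, scaled to sequencing depth), the level required for testing; Adcy3 was under it. Libraries were made from fully-grown germinal vesicle (GV) oocytes, the prophase-arrested oocytes of the antral follicle, of C57BL/6 mice primed with PMSG, a hormone that stimulates follicle growth, for 44 to 48 hours. There were 3 libraries of Rtcb knock-out (KO) oocytes and 3 of wild-type (WT) oocytes, each from 10 pooled oocytes; Rtcb encodes an RNA ligase. Every title also carries the tag 6W, which the labels do not spell out, and the sources used here do not give the part of Rtcb deleted, any Cre driver or the animals behind each library. The p-values therefore cover the spread from library to library alone, and that spread may be technical. In pooled oocytes, fewer intact oocytes in a lysate and less RNA per oocyte cannot be told apart.

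In a fully-grown oocyte, GPR3 and its relative GPR12 are receptors that activate the stimulatory G protein without a known added ligand, and the G protein in turn activates adenylyl cyclase. The cAMP so made frees PKA catalytic subunits from their regulatory subunits, and PKA holds the kinase CDK1 inactive by acting on WEE2 and CDC25B. PDE3A, the main cAMP-degrading enzyme of the oocyte, is held back by cyclic GMP (cGMP) that enters from the surrounding granulosa cells through gap junctions; when cGMP falls after the luteinizing hormone surge, PDE3A lowers cAMP and meiosis resumes.

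Promoter sequence from RefSeq is shown for Gpr3, Gnas, Prkar1a and Prkaca, on which much of the results turns, because PKA phosphorylates CREB and its relatives, which bind the element TGACGTCA or its TGACG part. The table holds windows from 250 bases before to 50 bases after each transcript start on build GRCm38.p6, and 9 of the 10 genes, all but Pde3a, were matched by symbol, with 23 windows between them. Each line below gives the 250 bases before a start, 5′ to 3′ on the gene's own strand, with TGACG or its reverse complement CGTCA in capitals. The Gpr3 line is chr4:133212537-133212786 on the minus strand, the Gnas line is chr2:174329756-174330005 on the plus strand, before the most downstream of 4 listed starts, the Prkar1a line is chr11:109650699-109650948 on the plus strand, and the Prkaca line is chr8:83972728-83972977 on the plus strand.
Gpr3: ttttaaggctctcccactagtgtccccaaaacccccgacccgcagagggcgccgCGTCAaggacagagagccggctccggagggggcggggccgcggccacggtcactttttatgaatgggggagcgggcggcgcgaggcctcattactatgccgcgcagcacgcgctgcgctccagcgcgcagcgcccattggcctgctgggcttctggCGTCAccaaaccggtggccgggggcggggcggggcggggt
Gnas: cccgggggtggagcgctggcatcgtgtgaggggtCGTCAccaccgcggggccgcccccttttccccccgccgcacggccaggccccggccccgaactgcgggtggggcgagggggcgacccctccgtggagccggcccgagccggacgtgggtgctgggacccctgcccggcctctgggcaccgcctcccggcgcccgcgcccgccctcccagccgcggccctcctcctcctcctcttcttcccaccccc
Prkar1a: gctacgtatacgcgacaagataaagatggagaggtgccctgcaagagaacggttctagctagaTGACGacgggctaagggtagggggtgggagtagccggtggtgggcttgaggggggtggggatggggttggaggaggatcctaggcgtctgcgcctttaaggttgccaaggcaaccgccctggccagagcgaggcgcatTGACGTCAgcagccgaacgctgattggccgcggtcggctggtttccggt
Prkaca: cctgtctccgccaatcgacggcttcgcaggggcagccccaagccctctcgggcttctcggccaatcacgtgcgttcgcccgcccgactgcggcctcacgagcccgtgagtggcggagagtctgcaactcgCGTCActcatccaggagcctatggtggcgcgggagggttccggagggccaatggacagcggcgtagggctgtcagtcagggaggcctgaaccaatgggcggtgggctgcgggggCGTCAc

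The full element TGACGTCA, searched on both strands, was present in the Prkar1a window shown, with its first base 49 bases before the start. Prkar1a has several listed starts. The same site lies after another of them, at position 39, and the remaining Prkar1a windows lacked the element. Prkaca also has another listed start, whose window held no match to TGACG, so the windows shown for both genes are ones with matches. The full element was found in no window of the other 8 genes, against 588 of all 32851 promoter windows, or 1.79%. The shorter TGACG, which lies inside the full element and was also searched on both strands, was in 10 of the 23 windows, or 43.5%, and in 6837 of all windows, or 20.8%. Windows of one gene can overlap and then share a match, so these counts are descriptions. Gpr3 had TGACG matches that began 196 and 40 bases before its start, Prkaca had matches 120 and 6 bases before, and the Gnas window shown had a match 216 bases before. A match is not a bound site, and binding was not measured here.

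The knock-out was visible in its own transcript. Rtcb, listed under the older symbol D10Wsu52e, averaged 2.98 ± 0.733 FPKM in KO oocytes and 127 ± 12.9 FPKM in WT oocytes (SD, n = 3 each; limma log2 difference −5.02, adjusted p = 1.36e-05). Values are FPKM that the authors normalized to ERCC spike-ins, RNAs added at a fixed dilution to each lysate. The digits of the values show one factor for all KO libraries and one for all WT libraries, at a KO to WT ratio of 0.667, which is −0.58 on the log2 scale. Every difference was therefore also computed with these factors removed, so that the values are as they were before them. The median difference of all 12029 genes was −0.47 as deposited and 0.043 with the factors removed. Summed FPKM were 943926 to 999507 in KO libraries and 1267730 to 1347014 in WT libraries. All 12 oocyte markers were present, with summed levels of 19200 to 20165 FPKM in KO libraries and 28526 to 33065 FPKM in WT libraries. The 14 granulosa and cumulus markers summed to 35.9 to 50.8 FPKM in KO libraries and 49.5 to 57.3 FPKM in WT libraries, and 7 of them, Fshr, Lhcgr and Foxl2 included, were under 1 FPKM in every library. Without Cyp19a1, the highest of that list, the sums were 15.8 to 33.3 FPKM in KO libraries and 12.4 to 17.5 FPKM in WT libraries. Of the 14, 6 reached the level for testing. As deposited limma called 1 lower and none higher, against 54% and 9.29% of all tested genes. With the factors removed it called none lower and 2 higher, against 18% and 25.7%. The 9 immune markers summed to 114.6 to 120.6 FPKM in KO libraries and 79.3 to 112.6 FPKM in WT libraries, nearly all of it C1qb, without which the sums were 1.86 to 12.9 and 3.39 to 6.14 FPKM in KO and WT libraries. Of the immune list, Ptprc, C1qc, Csf1r and Emr1 were under 1 FPKM in every library. Of the 5 erythroid markers, the 4 globin genes were listed at 0 and Alas2 was under 1 FPKM in every library. The part of these other cell types in the results was not tested.

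As deposited, 7 of the 9 tested genes fell in KO oocytes and none rose: Gpr3, Gpr12, Gnas, Adcy9, Pde3a, Prkar1a and Prkar2b. Gpr12 passed the level filter through the WT libraries, which makes its place in this and the later counts no support. Among all tested genes 54% were called lower and 9.29% higher, 63.3% in all, by the same rule, limma on log2(FPKM + 1) with a Benjamini-Hochberg adjusted p under 0.05, so a lower call was the common outcome. With the genotype factors removed, Gnas and Pde3a remained lower, Prkaca was called higher, and the other 6 were not called; the background was then 18% lower and 25.7% higher, 43.7% in all. Equal totals gave 2 lower calls, against a background of 25.8% lower and 19% higher, 44.8% in all, and median-ratio rescaling gave 2 lower and 1 higher, against 21.7% and 22.8%, 44.5% in all. Gnas and Pde3a were the members called in the same direction under all 4 scalings run, which were the deposited scaling, equal library totals, median-ratio rescaling and removal of the genotype factors. By that rule 18% of all tested genes were called lower and 9.23% higher, 27.2% in all, so 2 of 9 was near the background. The groups stood apart, with every KO library below every WT library, for the same 7 genes as deposited, and the reverse for none. Among all tested genes 57.5% stood apart with KO lower and 10.2% with KO higher, 67.8% in all. With the factors removed, 2 of the 9 stood apart with KO lower and 2 with KO higher, against 24.7% and 31.7% of all tested genes, 56.4% in all.

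**Figure D1:**
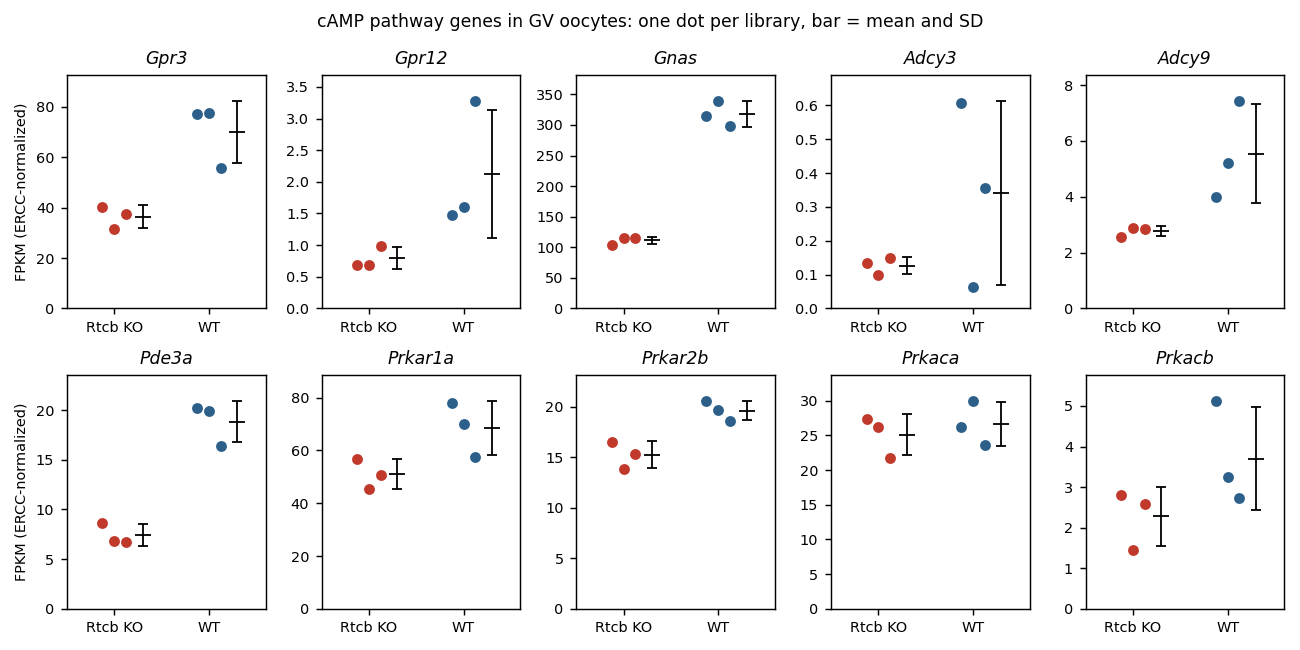
FPKM of the 10 genes (linear axis from 0, one panel per gene) in each Rtcb KO and WT library; dots are libraries and bars are mean and SD of 3. For Gnas and Pde3a all KO dots lie well below all WT dots, while the Prkaca and Prkacb dots of both genotypes overlap.

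Gpr3, the receptor that drives cAMP synthesis in the mouse oocyte, was at 40.4, 31.5 and 37.4 FPKM in KO libraries, against 77.0, 77.5 and 55.7 FPKM in WT libraries. Every KO library was below every WT library, and WT replicate 3 was the lowest of the WT libraries. The means were 36.4 ± 4.48 FPKM in KO and 70.1 ± 12.4 FPKM in WT oocytes, a log2 difference of −0.92 (SE 0.157, limma adjusted p = 0.00144). Relative to the median of all tested genes the difference was −0.45. With the genotype factors removed it was −0.34 (limma adjusted p = 0.11) and the groups overlapped; without WT replicate 3 it was then −0.49 (limma adjusted p = 0.0234). Its rank within a library was at percentile 70.2 ± 1.98 in KO and 75.0 ± 2.92 in WT oocytes, ranges that also overlapped. Gpr3 shares 4.29% of its 50-base stretches with Cd164l2 on the opposite strand, by GENCODE vM21. Cd164l2 was far more abundant, at 1668 to 1846 FPKM in KO and 1822 to 1967 FPKM in WT libraries, and the protocol names no strand-specific step, so reads of that stretch cannot be told apart.

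Gpr12, the closest measured relative of Gpr3, was near the level required for testing and reached it through the WT libraries. It was at 0.692, 0.691 and 0.991 FPKM in KO libraries, against 1.47, 1.61 and 3.28 FPKM in WT libraries. The groups stood apart, and WT replicate 3 was the highest. The log2 difference was −0.76 (SE 0.236, limma adjusted p = 0.0226). Since Gpr12 passed the filter through the WT libraries, a lower call of it is no support. The call was lost without KO replicate 1 (adjusted p = 0.0627) or KO replicate 2 (adjusted p = 0.054), and with the factors removed the limma adjusted p was 0.158. Gpr6, the third member of the receptor family, was listed at 0 in every library. Gpr3 made up 97.9 ± 0.447% of the summed FPKM of the 3 receptors in KO and 96.8 ± 2.09% in WT oocytes, with overlapping ranges.

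Gnas encodes the stimulatory G protein alpha subunit and was the highest of the 10 genes in both genotypes. It was at 104.5, 114.7 and 115.1 FPKM in KO libraries, against 314.6, 339.9 and 298.5 FPKM in WT libraries. The groups stood far apart: the highest KO value was well under the lowest WT value. The means were 111.4 ± 6.01 FPKM in KO and 317.7 ± 20.9 FPKM in WT oocytes, so the WT mean was 2.85 times the KO mean, and the log2 difference was −1.50 (SE 0.0896, limma adjusted p = 0.000162). Relative to the median of all tested genes it was −1.03. The difference was −0.92 with the factors removed (adjusted p = 0.000806), −1.07 with equal totals (adjusted p = 0.00117) and −0.99 with median-ratio rescaling (adjusted p = 0.000681, all limma). Leaving out each library in turn gave −1.55 to −1.45. Within a library its rank was at percentile 86.5 ± 0.604 in KO oocytes, against 93.0 ± 0.547 in WT oocytes, with no overlap.

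The Gnas row does not separate the several transcripts of this imprinted locus. By GENCODE vM21, 18.6% of its 50-base stretches are shared with Gm20721 and Nespas, both on the opposite strand. Nespas itself was listed at 0.595 to 1.12 FPKM in KO and 0.589 to 0.89 FPKM in WT libraries, and Gm20721 has no row in the table.

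Gnas was also lower relative to the other G alpha genes. It made up 56.0 ± 0.825% of the summed FPKM of 7 stimulatory and inhibitory G alpha genes in KO oocytes and 65.3 ± 2.73% in WT oocytes, with no overlap. The ratio of Gnas to the inhibitory subunit gene Gnai2 was 3.54, 3.37 and 3.497 in KO libraries, against 6.23, 5.93 and 4.61 in WT libraries. These ratios and shares are taken within a library and so do not depend on its scaling. They are descriptions with no test, and the ratio was chosen after the data were seen.

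Of 31 listed receptors, G protein subunits and regulators around Gpr3 and Gnas, 21 were tested. As deposited 10 fell and 2 rose, against 54% and 9.29% of all tested genes. With the factors removed 1 fell and 4 rose, against 18% and 25.7%. The median log2 difference of the 21 was −0.38 as deposited. Gnai3, an inhibitory alpha subunit gene, averaged 35.5 ± 1.08 FPKM in KO and 80.0 ± 8.90 FPKM in WT oocytes (log2 difference −1.14, limma adjusted p = 0.000174) and was called lower under all 4 scalings. Gnai2 was at 32.2 ± 2.38 FPKM in KO and 57.5 ± 7.12 FPKM in WT oocytes, and the beta subunit gene Gnb1 at 49.9 ± 6.54 and 105.6 ± 22.5 FPKM in KO and WT oocytes. Both fell as deposited and neither was called with the factors removed. The beta subunit gene Gnb4 fell by 0.62 on the log2 scale as deposited (limma adjusted p = 0.00101) and differed by −0.036 with the factors removed. The 2 that rose, named after their values were seen, were the gamma subunit gene Gng5, at 686.9 ± 48.1 FPKM in KO and 519.6 ± 45.9 FPKM in WT oocytes (log2 difference 0.40, limma adjusted p = 0.0083), and Ric8b, a chaperone of stimulatory alpha subunits, at 3.75 ± 1.21 and 1.23 ± 0.229 FPKM in KO and WT oocytes (log2 difference 1.06, limma adjusted p = 0.00371). Both rose under all 4 scalings.

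Adcy3, a cyclase reported in the rodent oocyte, was at or under 0.607 FPKM everywhere and was not tested. It was at 0.133, 0.0978 and 0.149 FPKM in KO libraries, against 0.607, 0.0627 and 0.355 FPKM in WT libraries, and the groups overlapped. Of its 50-base stretches, 18.6% are shared with Cenpo on the opposite strand, and Cenpo was at 53.0 to 59.2 FPKM in KO and 84.1 to 90.7 FPKM in WT libraries. Adcy9 was at 2.56, 2.88 and 2.85 FPKM in KO libraries, against 3.98, 5.23 and 7.45 FPKM in WT libraries. Every KO value was below every WT value, and the WT values spread widely. The log2 difference was −0.77 (SE 0.207, limma adjusted p = 0.0125), which was −0.30 relative to the median of all tested genes, and −0.27 with the factors removed (limma adjusted p = 0.249). On that last scale it was −0.098 without WT replicate 3 and −0.43 without WT replicate 1.

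The other cyclases placed Adcy9 second in both genotypes, after Adcy5. Of 8 other cyclases 4 were tested, and as deposited 2 fell and 1 rose, against 54% and 9.29% of all tested genes. Adcy5 averaged 4.02 ± 0.166 FPKM in KO and 9.52 ± 1.497 FPKM in WT oocytes (log2 difference −1.06, limma adjusted p = 0.000609). Adcy6 was at 1.79, 1.20 and 2.17 FPKM in KO libraries, against 0.519, 0.491 and 0.551 FPKM in WT libraries, and so passed the level filter through the KO libraries (log2 difference 0.82, limma adjusted p = 0.00495). Both were called in the same direction under all 4 scalings, but the filter makes a higher call of Adcy6 no support. Adcy8 fell as deposited (log2 difference −0.53, limma adjusted p = 0.0374) and not with the factors removed, Adcy1 differed by 0.047 (limma adjusted p = 0.841), and Adcy10 stayed under the filter. Adcy2 was under 0.13 FPKM in every library, and Adcy4 and Adcy7 were listed at 0.

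Shares of the summed cyclase transcripts were also taken within libraries, as descriptions of genes at low levels. Summed over 10 cyclase genes, FPKM were 11.9 ± 0.727 in KO and 20.0 ± 1.38 in WT oocytes. Adcy5 made up 33.8 ± 0.981% of the sum in KO and 47.7 ± 6.99% in WT oocytes. Adcy6 made up 14.3 ± 3.28% in KO and 2.61 ± 0.0989% in WT oocytes, and Adcy1 9.76 ± 1.90% and 5.50 ± 1.59%. None of these 3 shares overlapped between genotypes, but Adcy6 passed the level filter through the KO libraries, so its share is no support. The share of Adcy9 was 23.3 ± 2.40% in KO and 27.8 ± 8.41% in WT oocytes, with overlap.

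**Figure D2:**
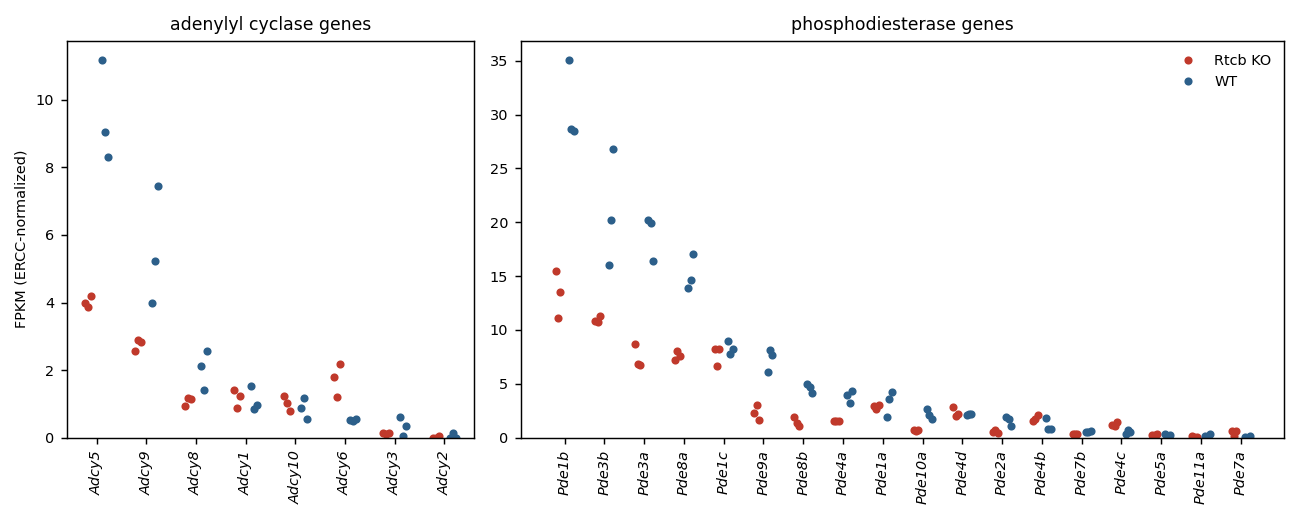
FPKM (linear axes from 0) of 8 adenylyl cyclase genes and 18 phosphodiesterase genes, with 3 dots per genotype, Rtcb KO left of WT for each gene; Adcy4 and Adcy7, listed at 0, are left out. Adcy5, Pde1b and Pde3a show KO below WT, and Adcy6 shows KO above WT.

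Pde3a, the phosphodiesterase whose activity ends the arrest, was at 8.67, 6.81 and 6.76 FPKM in KO libraries, against 20.2, 19.9 and 16.4 FPKM in WT libraries. The groups stood apart with a wide gap. The means were 7.41 ± 1.09 FPKM in KO and 18.9 ± 2.095 FPKM in WT oocytes, so the WT mean was 2.54 times the KO mean, and the log2 difference was −1.24 (SE 0.149, limma adjusted p = 0.000316). Relative to the median of all tested genes it was −0.77. It was −0.67 with the factors removed (adjusted p = 0.00795), −0.85 with equal totals (adjusted p = 0.0059) and −0.77 with median-ratio rescaling (adjusted p = 0.00494, all limma). Within a library its rank was at percentile 37.4 ± 2.38 in KO oocytes, against 49.9 ± 1.80 in WT oocytes, with no overlap. Of its 50-base stretches 5.64% are shared, mostly with Gm28523 on the opposite strand.

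Of 17 other phosphodiesterases 12 were tested. As deposited 8 fell and none rose, against 54% and 9.29% of all tested genes. With the factors removed 5 fell and 3 rose, against 18% and 25.7%. The median of the 12 was −0.87 as deposited and −0.34 with the factors removed. Pde1b, a calmodulin-regulated enzyme and the highest of the family in WT oocytes, averaged 13.4 ± 2.201 FPKM in KO and 30.7 ± 3.78 FPKM in WT oocytes (log2 difference −1.15, limma adjusted p = 0.000457). Pde9a, which acts on cGMP, was at 2.32 ± 0.666 and 7.31 ± 1.05 FPKM in KO and WT oocytes (log2 difference −1.34, limma adjusted p = 0.000664), and Pde8b, which acts on cAMP, at 1.47 ± 0.438 and 4.595 ± 0.427 FPKM (log2 difference −1.19, limma adjusted p = 0.000728). Pde1b, Pde9a and Pde8b, with Pde4a and Pde10a, named after their values were seen, were called lower under all 4 scalings. Pde10a and Pde2a, both among the 8, averaged under 1 FPKM in KO oocytes and so passed the level filter through the WT libraries, which makes a lower call of theirs no support. Pde8a fell as deposited (log2 difference −0.91, limma adjusted p = 0.000653) and differed by −0.36 with the factors removed (limma adjusted p = 0.0518).

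Pde3b, the closest relative of Pde3a, was at 10.8, 10.7 and 11.3 FPKM in KO libraries, against 16.1, 20.2 and 26.8 FPKM in WT libraries. It fell as deposited (log2 difference −0.85, limma adjusted p = 0.00399) and not with the factors removed (−0.30, limma adjusted p = 0.198). The Pde3a to Pde3b ratio was 0.803, 0.634 and 0.599 in KO libraries, against 1.26, 0.987 and 0.613 in WT libraries, and the ranges overlapped. Pde3a made up 11.7 ± 1.10% of the summed FPKM of 18 phosphodiesterases in KO and 15.5 ± 2.05% in WT oocytes, with no overlap. That sum was 63.0 ± 4.26 FPKM in KO and 121.7 ± 2.97 FPKM in WT oocytes.

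Prkar1a, the type I regulatory subunit of PKA and the gene with the full TGACGTCA element above, was at 56.7, 45.4 and 50.8 FPKM in KO libraries, against 77.9, 70.2 and 57.5 FPKM in WT libraries. The groups stood apart by a narrow margin, between KO replicate 1 and WT replicate 3. The log2 difference was −0.42 as deposited (SE 0.138, limma adjusted p = 0.0297) and turned to 0.16 with the factors removed (limma adjusted p = 0.372), and relative to the median of all tested genes it was 0.056. The deposited call was lost without KO replicate 2, KO replicate 3, WT replicate 1 or WT replicate 2, with adjusted p up to 0.0911.

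Prkar2b, a type II regulatory subunit, was at 16.6, 13.9 and 15.4 FPKM in KO libraries, against 20.6, 19.7 and 18.6 FPKM in WT libraries. The groups stood apart as deposited with KO lower, and apart with KO higher once the factors were removed. The log2 difference was −0.34 as deposited (SE 0.118, limma adjusted p = 0.033) and 0.20 with the factors removed (limma adjusted p = 0.187). Its call was lost without any one of the same 4 libraries, with adjusted p up to 0.0928. Within a library, its percentile was 52.8 ± 0.867 in KO and 50.7 ± 0.571 in WT oocytes.

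Prkaca encodes the main PKA catalytic subunit, which carries the kinase activity of the pathway. It was at 27.3, 26.3 and 21.7 FPKM in KO libraries, against 26.2, 30.0 and 23.7 FPKM in WT libraries, and the groups overlapped. The log2 difference was −0.083 (SE 0.136, 95% interval −0.40 to 0.23, limma adjusted p = 0.612). With the factors removed it was 0.47 (limma adjusted p = 0.024) and every KO library was above every WT library. That higher call was also made with median-ratio rescaling (0.41, limma adjusted p = 0.0398) and not with equal totals (0.33, limma adjusted p = 0.0948). With the factors removed it was lost without KO replicate 1, KO replicate 2, WT replicate 1 or WT replicate 3, with adjusted p of 0.0577 to 0.0843. Its percentile within a library was 62.6 ± 2.74 in KO and 56.8 ± 2.13 in WT oocytes, with no overlap.

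Prkacb, a second catalytic subunit, was at 2.79, 1.45 and 2.59 FPKM in KO libraries, against 5.13, 3.26 and 2.72 FPKM in WT libraries. The groups overlapped, since KO replicate 1 was above WT replicate 3. The log2 difference was −0.51 (SE 0.248, 95% interval −1.09 to 0.06, limma adjusted p = 0.103) and −0.073 with the factors removed. As deposited it was −0.31 without WT replicate 1 and −0.32 without KO replicate 2. The third catalytic gene, Prkx, was at 11.3, 8.47 and 11.8 FPKM in KO libraries, against 6.61, 6.80 and 4.68 FPKM in WT libraries. It rose under all 4 scalings (log2 difference 0.72 as deposited, limma adjusted p = 0.0106) and made up 27.8 ± 4.67% of catalytic FPKM in KO and 16.5 ± 1.26% in WT oocytes.

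Among the other PKA subunits and inhibitors, 6 were listed and 4 tested. As deposited 2 were called lower and Prkx higher, against 54% lower and 9.29% higher among all tested genes. The regulatory subunit gene Prkar2a averaged 18.5 ± 0.545 FPKM in KO and 31.2 ± 3.497 FPKM in WT oocytes (log2 difference −0.72, limma adjusted p = 0.00116), and the PKA inhibitor gene Pkig 115 ± 14.0 and 160 ± 6.78 FPKM in KO and WT oocytes (log2 difference −0.48, limma adjusted p = 0.00496). Neither was called with the factors removed, where Pkig differed by 0.10. A further inhibitor gene, Pkib, was at 2.73 ± 0.274 FPKM in KO and 3.004 ± 0.255 FPKM in WT oocytes and was not called. Prkar1b and Pkia were under 1 FPKM in every library.

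The balance of regulatory to catalytic transcripts was taken within each library. For the 4 subunits Prkar1a, Prkar2b, Prkaca and Prkacb the ratio was 2.43, 2.14 and 2.73 in KO libraries, against 3.14, 2.70 and 2.88 in WT libraries, and the ranges overlapped. With Prkar1b, Prkar2a and Prkx added, it was 2.201, 2.16 and 2.35 in KO libraries, against 3.42, 2.94 and 3.57 in WT libraries, with no overlap. This wider ratio was chosen after the data were seen. It adds Prkar2a, called lower as deposited, and Prkx, called higher, so its separation is no support. Prkaca made up 66.2 ± 6.25% of catalytic FPKM in KO and 73.4 ± 3.79% in WT oocytes, and Prkar1a 60.0 ± 2.11% of regulatory FPKM in KO and 57.2 ± 4.601% in WT oocytes, both with overlap.

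**Figure D3:**
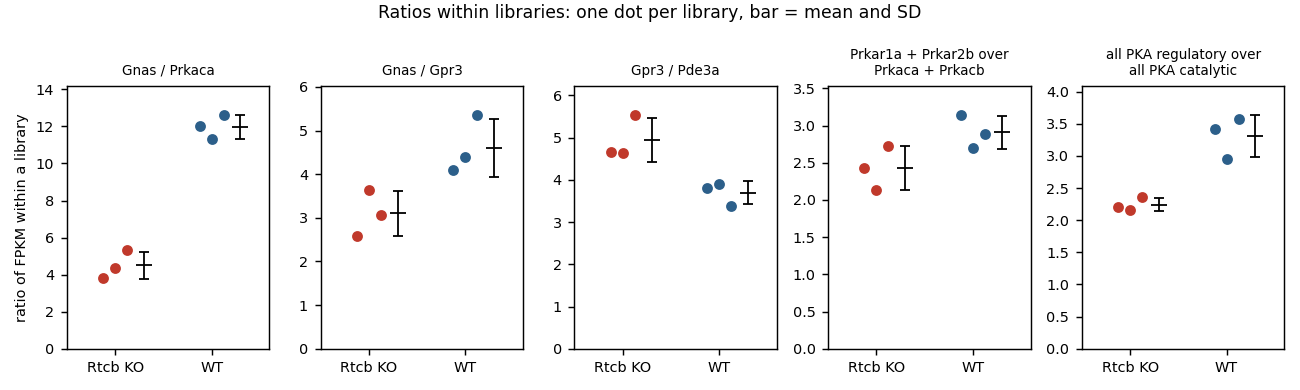
Ratios of FPKM within a library (linear axes from 0) for Rtcb KO and WT; dots are libraries, bars mean and SD of 3. Gnas to Prkaca shows the widest gap of those plotted, the ratio over the 4 PKA subunits overlaps, and the ratio over all measured PKA subunits does not. The ratios with Gnas and the ratio over all measured PKA subunits were chosen after the data were seen.

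The order of the genes by FPKM, a per-length level, was similar in both genotypes at its ends. In KO oocytes it ran Gnas, Prkar1a, Gpr3, Prkaca, Prkar2b, Pde3a, Adcy9, Prkacb, Gpr12, Adcy3, and only Adcy9 and Prkacb overlapped as neighbours. In WT oocytes it ran Gnas, Gpr3, Prkar1a, Prkaca, Prkar2b, Pde3a, Adcy9, Prkacb, Gpr12, Adcy3, and Gpr3 with Prkar1a, Prkar2b with Pde3a, and Adcy9, Prkacb and Gpr12 overlapped as neighbours. The ratio of Gnas to Prkaca, receptor-side against kinase, was 3.83, 4.36 and 5.31 in KO libraries, against 12, 11.3 and 12.6 in WT libraries. The ratio of Gnas to Gpr3 was 2.59, 3.63 and 3.08 in KO libraries, against 4.09, 4.39 and 5.36 in WT libraries. In both, every KO library was below every WT library. Both ratios with Gnas were chosen after the data were seen. Gnas had the largest fall of the tested genes and Prkaca the smallest, so this separation is no support. The ratio of Gpr3 to Pde3a ran the other way, at 4.65, 4.63 and 5.54 in KO libraries, against 3.81, 3.89 and 3.39 in WT libraries. By rank within a library, 4 of the 9 tested genes were below WT in every KO library (Gpr12, Gnas, Adcy9 and Pde3a), 2 were above (Prkar2b and Prkaca) and 3 overlapped, while 32.1% of all tested genes stood below and 25.3% above, 57.4% in all. Of these, Gpr12 passed the level filter through the WT libraries and is no support.

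**Figure D4:**
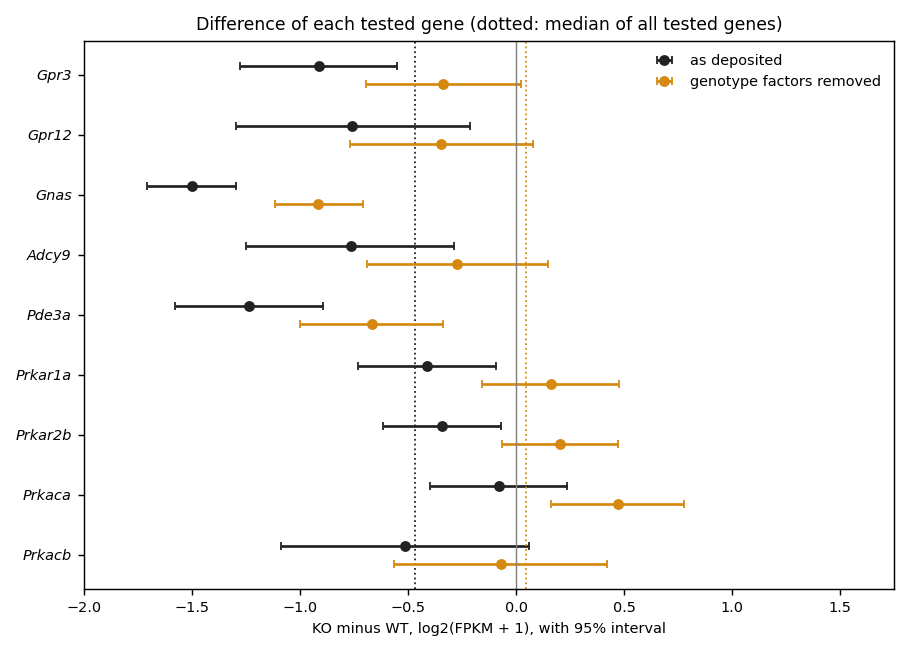
KO minus WT difference on the log2(FPKM + 1) scale with 95% interval for the 9 tested genes, as deposited in black and with the genotype factors removed in orange; dotted lines mark the median of all tested genes. Gnas and Pde3a lie left of 0 on both scales, and Prkar1a, Prkar2b and Prkaca change side.

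Anchoring proteins place PKA at defined sites in the cell. Of 15 genes of the AKAP family, 11 were tested. As deposited 8 fell and 1 rose, against 54% and 9.29% of all tested genes. With the factors removed 3 fell and 1 rose, against 18% and 25.7%. Akap12 averaged 35.9 ± 3.05 FPKM in KO and 94.1 ± 17.6 FPKM in WT oocytes (log2 difference −1.35, limma adjusted p = 0.00022), and Akap13 4.28 ± 0.445 and 9.57 ± 1.03 FPKM in KO and WT oocytes (log2 difference −1, limma adjusted p = 0.000671). Akap12, Akap13 and Akap9, the last named after its values were seen, fell under all 4 scalings. Akap8l and Akap7 fell as deposited (log2 differences −0.77 and −0.94, limma adjusted p = 0.000448 and 0.000791) and were not called with the factors removed. Akap5, the one that rose and named after its values were seen, was at 10.98, 11.9 and 12.2 FPKM in KO libraries, against 8.59, 9.53 and 8.27 FPKM in WT libraries (log2 difference 0.38, limma adjusted p = 0.0294), and rose under all 4 scalings.

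Among 11 cAMP-responsive factors and effectors, 10 were tested. As deposited 4 fell and 2 rose, against 54% and 9.29% of all tested genes. With the factors removed 2 fell and 4 rose, against 18% and 25.7%. Atf1, a CREB relative, averaged 37.8 ± 3.17 FPKM in KO and 74.2 ± 6.83 FPKM in WT oocytes (log2 difference −0.95, limma adjusted p = 0.000289), and the CREB coactivator gene Crtc1 4.52 ± 0.435 and 9.77 ± 0.600 FPKM in KO and WT oocytes (log2 difference −0.97, limma adjusted p = 0.000589). Creb1 was at 2.96, 1.73 and 2.93 FPKM in KO libraries, against 1.10, 1.14 and 1.06 FPKM in WT libraries (log2 difference 0.73, limma adjusted p = 0.0104). Crem, a further relative, named after its values were seen, was at 5.75 ± 1.02 FPKM in KO and 3.14 ± 1.03 FPKM in WT oocytes (log2 difference 0.73, limma adjusted p = 0.0219). Atf1 and Crtc1 fell, and Creb1 and Crem rose, under all 4 scalings. Rapgef4, a cAMP-activated exchange factor, fell as deposited (limma adjusted p = 0.0109) and differed by −0.016 with the factors removed.

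All 9 listed cell cycle regulators downstream of PKA were tested. As deposited 7 fell and 1 rose, against 54% and 9.29% of all tested genes. With the factors removed 1 fell and 1 rose, against 18% and 25.7%. Wee2, the oocyte kinase that PKA activates to inhibit CDK1, averaged 340.8 ± 17.6 FPKM in KO and 569.1 ± 46.6 FPKM in WT oocytes (log2 difference −0.74, limma adjusted p = 0.000361; −0.15 and not called with the factors removed). Mastl, the kinase that protects CDK1 substrates from phosphatase, was at 51.3 ± 3.43 and 105.9 ± 7.15 FPKM in KO and WT oocytes (log2 difference −1.03, limma adjusted p = 0.000174) and fell under all 4 scalings. Wee1 was at 42.6, 21.4 and 35.6 FPKM in KO libraries, against 11.3, 10.4 and 9.44 FPKM in WT libraries. It rose under all 4 scalings (log2 difference 1.54 as deposited, limma adjusted p = 0.000816). Ensa, a substrate of the Mastl kinase, fell as deposited (log2 difference −0.61, limma adjusted p = 0.009) and differed by −0.040 with the factors removed.

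Of 13 genes of cGMP supply and gap junctions, 7 were tested. As deposited 3 fell and 1 rose, against 54% and 9.29% of all tested genes. With the factors removed 2 fell and 3 rose, against 18% and 25.7%. The cGMP-dependent kinase gene Prkg1 fell under all 4 scalings and averaged 4.20 ± 0.839 FPKM in KO and 9.99 ± 0.733 FPKM in WT oocytes (log2 difference −1.09, limma adjusted p = 0.000721). Prkg2, the second such gene, was also called lower, but at 0.957 ± 0.275 FPKM in KO and 2.91 ± 0.228 FPKM in WT oocytes it passed the level filter through the WT libraries, so that call is no support. Impdh2, an enzyme of guanine nucleotide synthesis, was at 32.4, 16.96 and 23.3 FPKM in KO libraries, against 8.01, 8.60 and 6.12 FPKM in WT libraries, and rose under all 4 scalings (log2 difference 1.52, limma adjusted p = 0.000839). Gja4, the oocyte connexin of the gap junctions to granulosa cells, was at 1056, 1022 and 1160 FPKM in KO libraries, against 1346, 1211 and 1247 FPKM in WT libraries. It was called lower as deposited (log2 difference −0.23, limma adjusted p = 0.0499) and higher with the factors removed (0.35, limma adjusted p = 0.016).

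**Figure D5:**
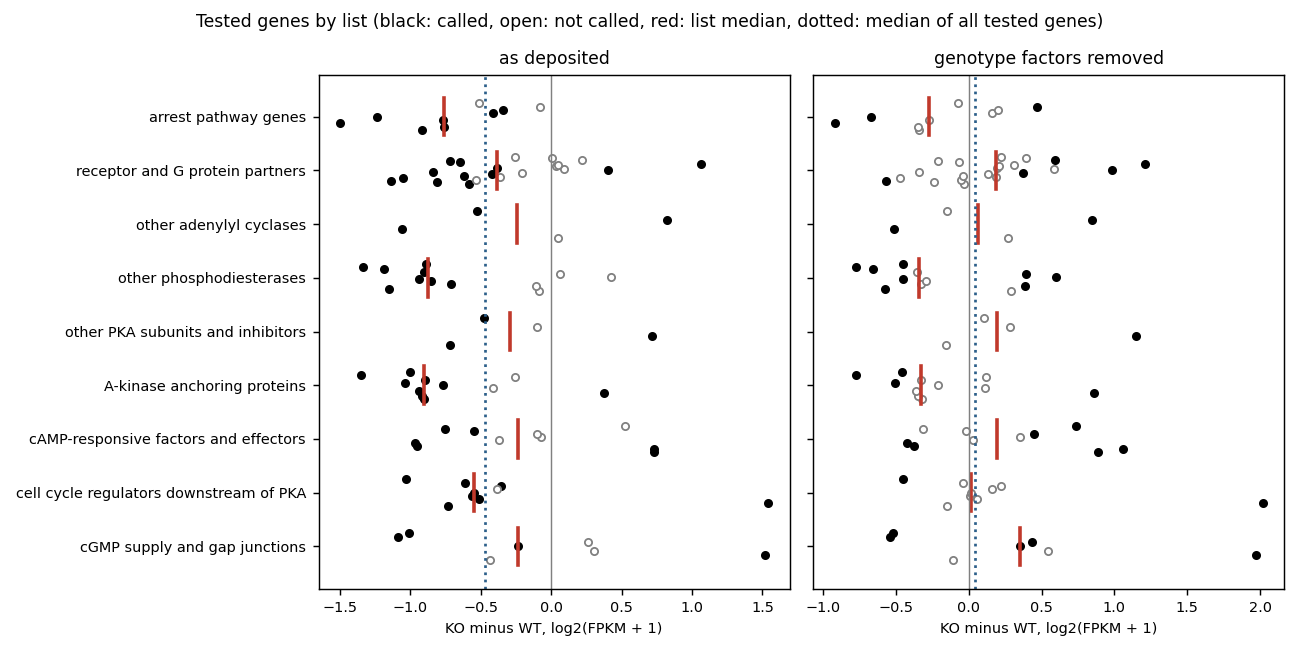
KO minus WT differences on the log2(FPKM + 1) scale for tested genes of the arrest pathway and 8 lists around it, as deposited (left) and with the genotype factors removed (right); black dots are called, open dots are not, red marks list medians and dotted lines the median of all tested genes. Most called genes lie left of 0 as deposited, and both directions are present with the factors removed.

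Over the 8 lists, 110 genes were listed and 78 tested. As deposited 44 fell and 9 rose, against 54% and 9.29% of all tested genes. Equal totals gave 24 lower and 12 higher, against 25.8% and 19%. Median-ratio rescaling gave 20 lower and 14 higher, against 21.7% and 22.8%. With the factors removed 15 fell and 18 rose, against 18% and 25.7%. Under all 4 scalings 15 fell and 9 rose, against 18% and 9.23% of all tested genes. Among these, Pde10a and Prkg2 (lower) and Adcy6 (higher) passed the level filter through the group where they were higher. Those calls are no support.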

How the data were processed

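Each library came from 10 oocytes, per the labels' protocols, lysed with ERCC spike-ins; polyadenylated RNA was turned into Smart-seq2 cDNA and sequenced from both ends. The authors deposited one FPKM value per symbol and library, already scaled to ERCC, per the labels; TopHat2 2.1.1, Cufflinks 2.2.1 and build mm9 are named in the submitters' processing notes. The sources used here give neither the annotation nor any filter. Read depth is unknown, which leaves counting error unknown. FPKM of at least 1, divided by 2 in WT and by 4/3 in KO libraries, gave numbers of 6 significant digits (tolerance 0.01 of the last digit) for 100% of values. Each genotype thus carries one factor, and spike-in error between libraries is not part of the spread.

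Libraries were grouped by the genotype label. The test took genes whose 6 libraries averaged 1 FPKM or more. It was run on log2(FPKM + 1), which understates changes of low genes, with limma 3.58.1 in R 4.3.3 (lmFit, eBayes with intensity trend), two-sided, Benjamini-Hochberg adjusted over all 12029 genes at 0.05; this step was tested on simulated data. Ratios, shares and percentiles were computed within libraries and not tested. The members and lists were chosen with earlier results of these data known. Named were the 10 genes, Rtcb, up to 4 called genes of smallest p per list, and close relatives. The settings varied were the pseudocount (0.1 or 5), the filter (none, or an average of 10 FPKM), equal totals, median-ratio rescaling, removal of the genotype factors, no intensity trend, a replicate block and each library left out. Leaving out libraries with the factors removed, and for shares and the ratios with Gnas, Pde3b or all PKA subunits, was chosen after seeing the data, as were those ratios. Shared 50-base stretches came from GENCODE vM21 transcripts and promoters from RefSeq on GRCm38.p6; no coordinates were carried over to mm9. Python 3.11.15, pandas 2.3.3, numpy 2.4.6 and matplotlib 3.10.9 were used.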

Additional observations from a re-analysis of the deposited data

How the results depend on the processing

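Of all 12029 tested genes, 1118 were called higher and 6501 lower as deposited. Equal totals gave 2283 and 3107, median-ratio rescaling 2746 and 2606, and removal of the genotype factors 3097 and 2161. A mean of at least 10 FPKM gave 490 higher and 4694 lower of 7267 tested genes. Of the 9 tested arrest pathway genes, 7 were called as deposited, all lower, against 63.3% of all tested genes. With equal totals 2 were called, against 44.8%. Median-ratio rescaling gave 3 (2 lower, 1 higher), against 44.5%, and removal of the factors gave 3 (2 lower, 1 higher), against 43.7%. Of the 78 tested list genes, 53 were called as deposited (9 higher, 44 lower), against 63.3% of all tested genes. Equal totals gave 36 (12 higher, 24 lower), against 44.8%. Median-ratio rescaling gave 34 (14 higher, 20 lower), against 44.5%, and removal of the factors gave 33 (18 higher, 15 lower), against 43.7%. A mean of at least 10 FPKM, which leaves fewer genes to test, gave 32 list genes called (3 higher, 29 lower). By that filter 5184 of all 7267 tested genes were called. Prkar1a, Prkar2b and Prkaca changed sign, to 0.0098, 0.065 and 0.33 with equal totals, 0.091, 0.14 and 0.41 with median-ratio rescaling, and 0.16, 0.20 and 0.47 with the factors removed. As deposited these differences were −0.42, −0.34 and −0.083. Each rescaling multiplies all values of a library by a common factor, so a small negative difference can change sign through the scaling alone. The median of all tested genes also moved, from −0.47 as deposited to 0.043 with the factors removed. The sign changes are therefore not particular to these genes. Which scaling is right was not tested. Gnas and Pde3a kept direction and call in all 15 alternatives run for each, and in all 6 fits that left out a library with the factors removed. Prkar1a was not called without a filter (limma adjusted p = 0.0506). Gpr12 was at −1.24 with a pseudocount of 0.1 and −0.29 with 5, and called with both.

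Leaving out each library gave 6523 to 7479 of all 12029 tested genes called (774 to 1347 higher, 5607 to 6240 lower). The same fits called 4 to 7 of the 9 tested arrest pathway genes (4 without KO replicate 2) and 43 to 50 of the 78 tested list genes. Prkaca ranged from −0.16 to 0.015, the Prkar1a to Prkar2b ratio from −0.14 to 0.0064, Gpr3 to Gpr12 from −0.11 to 0.70 and Adcy3 to Adcy9 from −0.92 to 0.92 (log2). With the factors removed, leaving out each library gave 2 to 3 arrest pathway genes called (0 to 1 higher, 2 to 3 lower), against 29.2 to 43.8% of all tested genes (18.2 to 26.4% higher, 11 to 17.3% lower); Gpr3 was called without WT replicate 3 (limma adjusted p = 0.0234), and Prkacb ranged from −0.20 to 0.11.

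Same-numbered libraries had correlations of 0.141, −0.0988 and 0.0379 between their deviations from the group means, and not every library correlated best with its own number. Deviations from a mean of 3 libraries are tied to each other, so this check cannot exclude pairing. With a replicate block 7540 genes were called (1108 higher, 6432 lower) and 6 arrest pathway genes, Prkar2b not among them (limma adjusted p = 0.0523). Depth is unknown, so the low levels of Gpr12, Prkacb and Adcy3 carry an unknown counting error.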
